A study of Mus musculus with 4 samples.

Results

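The nuclei described here are macrophage nuclei of the mouse heart that carried RNA of at least 1 of 4 resident macrophage genes (Cd163, Lyve1, Timd4 or Folr2) and no RNA of MHC class II genes or Ccr2. There were 823 of them among 45992 deposited nucleus barcodes, or among 45483 nuclei past the quality filter. They were chosen on their own counts: at least 300 genes, at most 5% mitochondrial UMIs (unique molecular identifiers, the counted RNA molecules), under 2.5% of UMIs from Ttn, Ryr2, Myh6 and Rbm20, at least 4 UMIs summed over the macrophage genes Mrc1, F13a1, Csf1r, Myo1f, Fyb and Wdfy4, at least 1 UMI of the resident genes, and 0 UMIs of H2-Aa, H2-Eb1, H2-Ab1, Cd74 and Ccr2. Upper limits of 2 UMIs for the fibroblast genes Pdgfra, Dcn, Col1a2 and Abca8a, and of 3 UMIs for the endothelial genes Flt1, Ptprb and Cyyr1, removed nuclei with RNA of those cells.

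Hearts of C57BL/6 mice 6 months old gave 4 single-nucleus libraries (10x Genomics 3′ v3), each made from total cardiac nuclei of 3 pooled hearts. WT carried no labelled mutation, Rbm20_het a heterozygous and Rbm20_homo a homozygous Rbm20 mutation, and Rbm20_homo_corrected (the corrected library) the homozygous mutation followed by correction through gene editing. The amino acid change, the editor, its delivery and the time of treatment are not given in the sources used here. The library protocol text also speaks of CD45+ cells, although every library here was full of cardiomyocyte, fibroblast and endothelial nuclei. With n = 1 library per genotype and pooled hearts, no spread between animals was measured. Every difference between genotypes below is a difference between libraries, without a test, and brackets hold 95% intervals of counting error.

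Resident macrophages of the heart are seeded largely before birth, maintain themselves locally with little help from blood monocytes, and sit along vessels and between muscle cells. They take up dying cells, debris and iron-bearing haemoglobin and release growth factors. In mice they are recognised by the haemoglobin scavenger receptor Cd163, the hyaluronan receptor Lyve1, the phosphatidylserine receptor Timd4 and the folate receptor Folr2, whereas macrophages that descend from recruited monocytes more often carry Ccr2 and MHC class II genes.

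The resident nuclei numbered 184 for WT, 152 for Rbm20_het, 190 for Rbm20_homo and 297 for the corrected library. Their share of all nuclei past the quality filter was 1.96% for WT [1.69 to 2.26], 1.58% for Rbm20_het [1.34 to 1.85], 1.65% for Rbm20_homo [1.43 to 1.90] and 1.99% for the corrected library [1.77 to 2.22]. WT and the corrected library were at the upper end and both mutant libraries at the lower end, and all 4 intervals overlapped their neighbours in that order. The ratio of the Rbm20_homo share to the WT share was 0.843 [0.689 to 1.03] and that of Rbm20_het to WT was 0.807 [0.652 to 0.998]. The corrected share was 1.20 times that of Rbm20_homo [1.004 to 1.44]. That order turned when at least 2 UMIs of the resident genes were asked for, with a ratio of 0.954, and when every nucleus was thinned to 1000 UMIs before the rule was applied, with a ratio of 0.978. Against nuclei with under 2.5% cardiomyocyte UMIs in place of all nuclei, the ratio of Rbm20_homo to WT was 0.747 [0.611 to 0.912], so that its interval no longer included 1. With thinning before the rule, the ratio of Rbm20_het to WT was 0.871 [0.702 to 1.08], and its interval did include 1.

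Nuclei with 1 UMI of the resident genes, the fewest the rule admits, numbered 50 for WT, 46 for Rbm20_het, 48 for Rbm20_homo and 121 for the corrected library. Just outside, 69, 77, 90 and 213 nuclei in the same order met every other condition but had none of those UMIs. The corrected library thus held the most nuclei on either side of the limit. Median depth of the resident nuclei was close across libraries, at 2126 UMIs for WT, 2030.5 for Rbm20_het, 2334 for Rbm20_homo and 2023 for the corrected library, and their non-mitochondrial UMIs summed to 430511, 370453, 497086 and 680891. Pairs of libraries shared 26 to 56 barcodes, and no barcode of a resident nucleus was shared.

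Among all macrophage nuclei that met the other limits (383 for WT, 337 for Rbm20_het, 432 for Rbm20_homo and 800 for the corrected library), those with resident genes only made up 48.0% for WT [42.9 to 53.2], 45.1% for Rbm20_het [39.7 to 50.6], 44.0% for Rbm20_homo [39.2 to 48.8] and 37.1% for the corrected library [33.8 to 40.6]. The corrected library was lowest, and its interval lay below that of WT. Nuclei with MHC class II genes or Ccr2 and no resident gene made up 15.9% for WT, 10.4% for Rbm20_het, 22.5% for Rbm20_homo and 21.6% for the corrected library. Nuclei with neither kind of gene were most frequent in the corrected library, at 26.6% against 18.02% in WT. All these nuclei were called macrophages by the summed macrophage genes of the rule. No limit was set on genes of B cells, T cells or dendritic cells, and the part of such cells in these shares was not tested.

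**Figure D1:**
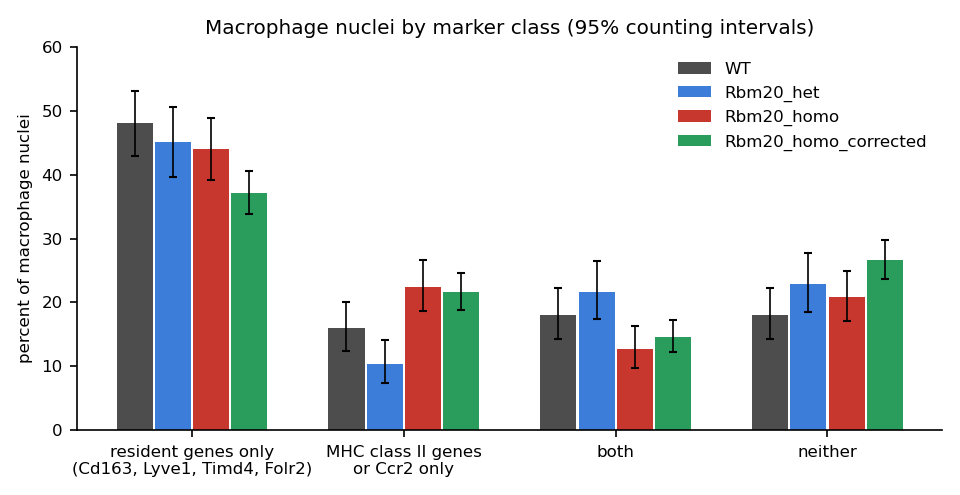
Percent of macrophage nuclei (y axis) in each of 4 marker classes (x axis) for the 4 libraries, 1 per genotype, with exact 95% binomial intervals of counting error. The share with resident genes only ran from 48.0% in WT to 37.1% in the corrected library. Nuclei were called macrophages by the genes of the rule, without a limit on genes of lymphocytes or dendritic cells.

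The genes of the label were part of the rule, so their detection describes the chosen nuclei and is no check of the label. F13a1, the A chain of coagulation factor XIII, was seen in 96.2%, 98.0%, 96.8% and 96.0% of the resident nuclei (WT, Rbm20_het, Rbm20_homo and corrected, the order of every such series below), and the mannose receptor Mrc1 in 94.0%, 92.1%, 95.8% and 94.6%. Cd163 was seen in 79.9%, 76.3%, 78.9% and 65.3%, whereas Lyve1 was seen in 22.3%, 33.6%, 46.3% and 28.3%. Lyve1 RNA was therefore detected in a minority of the resident nuclei in every library, and nuclei with both Cd163 and Lyve1 numbered 24, 33, 59 and 37. Between 55.8% and 66.0% of the nuclei of a library had only 1 of the 4 resident genes. Fibroblast nuclei, which should lack these genes and had median depths of 2487 to 3041 UMIs, showed Cd163 in 0.626% to 1.57% and Lyve1 in 0.991% to 2.23%.

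The levels of the 4 resident genes were part of the choice of nuclei and are given as a description. Levels are CPM, the UMIs of a gene in every 1000000 non-mitochondrial UMIs summed over the resident nuclei of a library. Cd163 (chromosome 6, 124304656 to 124330527, GRCm38) stood at 1071 CPM for WT [975 to 1173], 937 for Rbm20_het [841 to 1041], 1078 for Rbm20_homo [989 to 1174] and 669.7 for the corrected library [609.6 to 734]. The corrected library was the low one, 1.61-fold below Rbm20_homo [1.42 to 1.83], and its interval overlapped none of the others. Lyve1 (chromosome 7, 110850607 to 110863239) stood at 125 CPM for WT [94.2 to 164], 221 for Rbm20_het [176 to 275], 316 for Rbm20_homo [268 to 369] and 179 for the corrected library [149 to 214]. Rbm20_homo was 2.52-fold above WT [1.84 to 3.50], and the share of nuclei with a Lyve1 UMI after thinning to 1000 UMIs kept this order, at 10.3%, 18.9%, 27.0% and 15.6%. Lyve1 was also highest in Rbm20_homo in endothelial nuclei, at 12.7, 11.6, 32.7 and 8.61 CPM, and in fibroblast nuclei, at 3.78, 6.44, 8.17 and 4.66 CPM. The lymphatic endothelial list, Lyve1 among its genes, was at 565 CPM in resident nuclei of Rbm20_homo against 163 in WT. Lyve1 itself gave 157 of the 281 UMIs of that list in Rbm20_homo and 54 of 70 in WT. The defining lymphatic genes Prox1, Flt4, Mmrn1 and Reln were at 27.9, 165, 141 and 176 CPM, highest in the corrected library. Nuclei with at least 2 UMIs of these defining genes numbered 1, 6, 5 and 6. Whether lymphatic RNA in the remaining nuclei added to the Lyve1 level was not tested.

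Folr2 ran the other way, at 142 CPM for WT, 97.2 for Rbm20_het, 66.4 for Rbm20_homo and 117 for the corrected library, and Rbm20_homo was 2.13-fold below WT [1.38 to 3.37]. Timd4 was at 123, 184, 113 and 164 CPM, with Rbm20_homo and WT differing by less than the counting interval. The 4 resident genes thus had no common order across the genotypes. Other genes of the resident macrophage list, outside the rule and with at least 50 UMIs in the pair of libraries, were mostly below WT. In Rbm20_homo 13 of 16 were lower, 1 of them at least 2-fold, and 1 was at least 2-fold higher, with a median log2 ratio of -0.56. In Rbm20_het 12 of 15 were lower (median -0.28) and in the corrected library 11 of 17 (median -0.17), all against the same WT library. Of the macrophage genes in the rule, F13a1 in Rbm20_homo exceeded WT 1.40-fold [1.33 to 1.48], at 7741 against 5514 CPM, with 6219 CPM in Rbm20_het and 6029 in the corrected library. Fyb went the other way, at 1103 CPM for WT [1006 to 1207] and 837 for Rbm20_homo [758 to 921], with 732 in Rbm20_het and 833 in the corrected library. Csf1r, the receptor of the macrophage growth factor CSF1, stood at 511, 513, 497 and 513 CPM in the 4 libraries. These macrophage genes also chose the nuclei, so their levels are a description too.

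**Figure D2:**
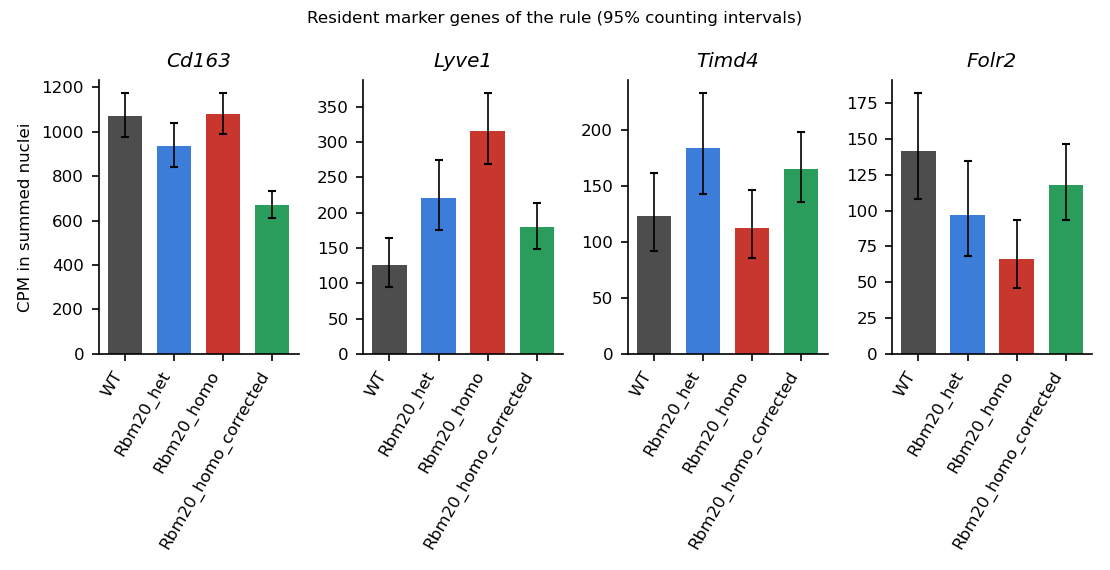
Level of the 4 resident genes of the rule in CPM over the summed resident nuclei (y axes, from 0, each gene on its own scale) in each library (x axes), with exact 95% Poisson intervals. Lyve1 is highest in Rbm20_homo at 316 CPM, Cd163 lowest in the corrected library at 669.7 CPM.

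RNA of other cells was measured in the same sums. The 15 genes of the cardiomyocyte list came to 8527 CPM for WT, 12468 for Rbm20_het, 9133 for Rbm20_homo and 9780 for the corrected library. The 11 fibroblast genes ranged from 1331 to 1752 CPM, the 11 endothelial genes from 410.3 to 732 and the 7 lymphatic endothelial genes from 163 to 565. Of the 18 monocyte genes 8 to 12 were detected in a library, at 235 to 298 CPM in all, while the defining ones, Ly6c2, Plac8 and Chil3, had no UMI in any library. The 12 dendritic cell genes came to 255 to 341 CPM; of their defining genes, Xcr1 and Cd209a had no UMI in any library, but Zbtb46 was at 92.9, 97.2, 105 and 64.6 CPM. Of the defining B cell genes, Cd79a had no UMI in 3 libraries and Pax5 none in WT and Rbm20_het, while Bank1 was at 286 to 784 CPM and Ebf1 at 443 to 580. Resident nuclei with at least 2 UMIs of the defining B cell genes numbered 92, 62, 64 and 172. These counts rested almost wholly on Bank1 and Ebf1. The 2 genes gave 281 and 241 of the 522 defining UMIs in WT, and 534 and 395 of 931 in the corrected library. The nuclear RNA Malat1 took 6.94% to 8.83% of UMIs.

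Between Rbm20_homo and WT, 3965 genes had at least 50 UMIs in the pair of libraries, and their median log2 ratio was -0.02. Of these, 115 genes (2.9%) were at least 2-fold higher and 99 (2.5%) at least 2-fold lower in Rbm20_homo, together 5.4%. With TMM factors, which allow for a shift in composition, the counts were 141 and 75. These percentages are the background for the gene groups below. The comparisons of Rbm20_homo and of Rbm20_het with WT share the WT library, and those of Rbm20_homo with WT and with the corrected library share Rbm20_homo, so they are not independent of each other.

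Genes known to be induced by glucocorticoids were mostly higher in Rbm20_homo than in WT. Glucocorticoid hormones bind the receptor Nr3c1, which then acts in the nucleus on targets such as Fkbp5, a chaperone partner that dampens the receptor, the transcription factor Zbtb16, and Tsc22d3, an anti-inflammatory leucine zipper protein. The list of 20 genes holds Cd163, which the rule used, and the counts that follow leave it out. It also holds the receptor Nr3c1 itself, which is counted among the measured genes and was lower in Rbm20_homo than in WT. Of 8 measured genes, 6 were higher in Rbm20_homo than in WT, 3 of them at least 2-fold, and 1 was at least 2-fold lower, with a median log2 ratio of 0.86 (0.73 with Cd163). Against WT, Rbm20_het had 3 of 7 measured genes at least 2-fold higher (background 2.12%) and a median of 0.67 (0.42 with Cd163). In the corrected library against Rbm20_homo, 4 of 8 were at least 2-fold lower (background 1.91%) and the median was -1.02 (-0.94 with Cd163), whereas against WT the median was 0.069. Fibroblast markers, by comparison, had 6 of 7 measured genes higher in Rbm20_homo than in WT, with a median of 0.70. That list was counted with its 4 genes of the rule, Dcn and Abca8a among those measured. The rule limited them in every nucleus, so these values are a description only.

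Fkbp5 (chromosome 17, 28399094 to 28517527) stood at 202 CPM for WT [162 to 249], 437 for Rbm20_het [373 to 510.1], 1312 for Rbm20_homo [1213 to 1416] and 330.4 for the corrected library [289 to 377]. The intervals of WT, of the middle pair and of Rbm20_homo did not overlap, while those of Rbm20_het and the corrected library overlapped slightly. The ratio of Rbm20_homo to WT was 6.49 [5.18 to 8.21], Rbm20_het was 2.16-fold above WT [1.66 to 2.84], and the corrected library was 3.97-fold below Rbm20_homo [3.41 to 4.64] and 1.64-fold above WT [1.27 to 2.12]. After thinning to 1000 UMIs, Fkbp5 was seen in 14.4%, 35.7%, 73.5% and 21.9% of the resident nuclei, highest in Rbm20_homo and lowest in WT. No single nucleus held more than 8.05% of the gene's UMIs in any library.

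Zbtb16 (chromosome 9, 48654297 to 48836222) had the same order, at 135 CPM for WT, 302 for Rbm20_het, 764 for Rbm20_homo and 272 for the corrected library, with a ratio of Rbm20_homo to WT of 5.67 [4.30 to 7.62]. Tsc22d3 (chromosome X, 140539528 to 140600659) was at 102, 211, 299.7 and 139.5 CPM, with a ratio of 2.93 [2.08 to 4.20]. Klf9, another transcription factor induced by the hormone, was at 118, 189, 235 and 104 CPM, with a ratio of 1.99 [1.42 to 2.82]. All 4 genes were thus lowest in WT or the corrected library, intermediate in Rbm20_het or the corrected library, and highest in Rbm20_homo. Hif3a had 0 UMIs for WT, 11 for Rbm20_het, 27 for Rbm20_homo and 1 for the corrected library, where 3 UMIs would be 6.97 CPM in WT. Rgs2, a regulator of G protein signalling on the same list with similarly few UMIs, went the other way, at 48.8, 24.3, 10.1 and 24.97 CPM, and Rbm20_homo was 4.85-fold below WT [1.78 to 16.5]. Nr3c1 itself was at 474, 475, 386 and 471 CPM, and Tsc22d1 in Rbm20_homo was 2.11-fold below WT [1.53 to 2.95].

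The 250 bases before the transcription start of 2 of these genes and of Cd163 are printed. Fkbp5 and Tsc22d3 are shown because both were highest in Rbm20_homo, and Cd163 because it names the nuclei and is on the glucocorticoid list, although its level in Rbm20_homo was near that of WT. They are RefSeq promoters of GRCm38.p6, on the strand of the gene, and capitals mark matches to AGAACA, the hexamer of the glucocorticoid receptor element, read here as its reverse complement TGTTCT.

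Fkbp5 (chr17:28486150-28486399, minus strand): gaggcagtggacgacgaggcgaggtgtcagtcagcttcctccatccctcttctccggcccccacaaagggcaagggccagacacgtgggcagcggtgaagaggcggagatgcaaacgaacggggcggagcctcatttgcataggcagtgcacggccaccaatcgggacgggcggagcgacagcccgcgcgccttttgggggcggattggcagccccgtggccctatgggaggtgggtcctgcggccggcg
Tsc22d3 (chrX:140600523-140600772, minus strand): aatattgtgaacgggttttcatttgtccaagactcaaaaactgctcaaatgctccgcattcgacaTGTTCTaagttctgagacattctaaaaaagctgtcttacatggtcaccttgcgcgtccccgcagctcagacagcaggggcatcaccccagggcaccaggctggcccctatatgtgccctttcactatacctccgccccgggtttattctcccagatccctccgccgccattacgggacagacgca
Cd163 (chr6:124304401-124304650, plus strand): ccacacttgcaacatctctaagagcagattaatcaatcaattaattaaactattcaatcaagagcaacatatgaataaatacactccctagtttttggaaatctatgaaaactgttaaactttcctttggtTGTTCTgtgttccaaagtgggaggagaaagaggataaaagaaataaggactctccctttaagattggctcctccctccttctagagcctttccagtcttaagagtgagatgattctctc

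Searched on both strands, the hexamer occurred in 16.1% of 32851 promoters of this length. It was found once in the printed Tsc22d3 window, 185 bases before the start, and once in that of Cd163, 119 bases before the start. It was not found in the Fkbp5 window, in that of Klf9 or in the other two windows of Tsc22d3. The full palindromic element, in which AGAACA is followed after 3 bases of any kind by TGTTCT, occurred in 3 of the 32851 promoters and in none of these. These are matches of letters in short windows, and no binding was measured.

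The same genes were read in other nuclei of the libraries to see whether their order was particular to resident macrophages. Fkbp5 in macrophage nuclei with MHC class II genes or Ccr2 was at 229.9 CPM for WT, 251 for Rbm20_het, 955 for Rbm20_homo and 279.6 for the corrected library. In fibroblast nuclei it was at 281, 549, 885 and 496 CPM, in endothelial nuclei at 57.5, 171, 574 and 99.6, and in cardiomyocyte nuclei at 19.8, 83.6, 267 and 38.4. Rbm20_homo was highest and WT lowest in all 5 classes. Zbtb16 and Tsc22d3 also had their highest level in Rbm20_homo and their lowest in WT in all 5. Klf9 differed: in fibroblast nuclei it was lowest in Rbm20_homo, at 257 CPM against 356 in WT, and in cardiomyocyte nuclei at 105 against 138. Whether the shift in macrophages depends on that in the surrounding nuclei was not tested.

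**Figure D3:**
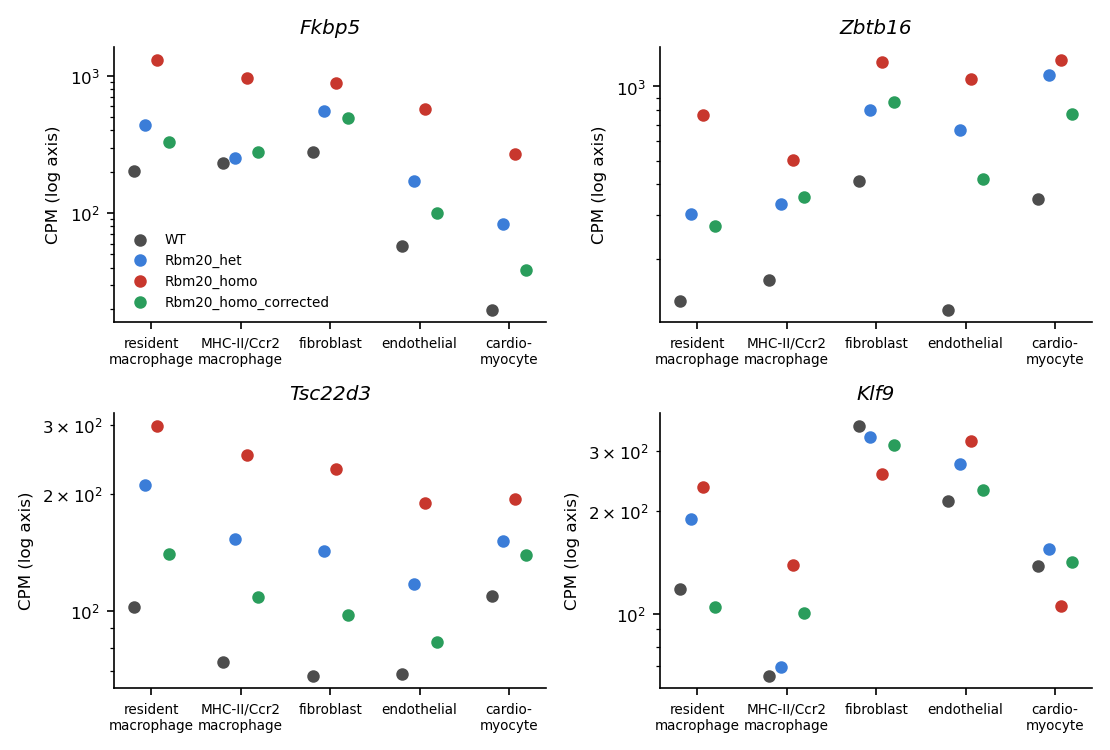
Level in CPM (log axes) of Fkbp5, Zbtb16, Tsc22d3 and Klf9 in 5 classes of nuclei (x axes), 1 point per library. Fkbp5, Zbtb16 and Tsc22d3 are highest in Rbm20_homo and lowest in WT in every class, while Klf9 in fibroblast and cardiomyocyte nuclei is lowest in Rbm20_homo.

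Marker lists of other cells also differed in this comparison: all 5 measured endothelial genes were lower in Rbm20_homo than in WT, with a median log2 ratio of -0.79, and all 3 measured B cell genes, Bank1 and Ighm among them, with a median of -1.19. The endothelial list was counted with its genes of the rule, Flt1 among the 5 measured. The rule limited those genes in every nucleus, so that count is a description only. Complement genes had 7 of 9 measured members higher in Rbm20_homo than in WT, none of them 2-fold, with a median log2 ratio of 0.33, and 7 of 9 lower in the corrected library than in Rbm20_homo, with a median of -0.62. C1qa, a chain of the first complement component, was at 228 CPM for WT, 219 for Rbm20_het, 334 for Rbm20_homo and 176 for the corrected library, and its partner C1qc at 207, 178, 298 and 185. C1qb, the remaining chain, followed at 297, 251, 374 and 207 CPM. All 3 chains were highest in Rbm20_homo, and the ratio to WT was 1.47 for C1qa [1.14 to 1.90], 1.44 for C1qc [1.10 to 1.90] and 1.26 for C1qb [0.999 to 1.59]. The complement receptor C5ar1 was at 125, 108, 225 and 160.1 CPM, a ratio of 1.80 [1.29 to 2.53].

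Apoe, the lipid carrier protein, was at 609 CPM for WT [537 to 687], 583 for Rbm20_het [508 to 666], 1227 for Rbm20_homo [1132 to 1329] and 740.2 for the corrected library [677 to 808]. Rbm20_homo stood clear of the others, 2.02-fold above WT [1.74 to 2.34]. Apoe had the same high library in MHC class II or Ccr2 nuclei, at 657, 627, 1430 and 592 CPM. Endothelial nuclei had it too, at a lower level, with 114, 100, 163 and 102 CPM. In fibroblast nuclei Rbm20_homo and WT were alike at 74.9 and 75.5 CPM, and in cardiomyocyte nuclei at 35.7 and 38.2. The growth factor Pdgfc was at 246, 251, 473 and 203 CPM, and Rbm20_homo exceeded WT 1.92-fold [1.52 to 2.44]. The integrin Itgav, which helps macrophages bind dying cells, was 2.63-fold higher [1.71 to 4.15], at 177 against 67.4 CPM, and the hypoxia factor Hif1a 2.83-fold higher [1.67 to 5.005], at 125 against 44.1 CPM.

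Genes of iron handling were mostly lower in Rbm20_homo. Without Cd163, 12 were measured, of which 9 were lower than in WT and 3 at least 2-fold lower, with a median log2 ratio of -0.14. That median was not particular to the iron list. Lysosome and lipid genes were lower in 13 of 19 (median -0.155), and general macrophage genes outside the rule in 16 of 26 (median -0.10). Neither of these lists had a gene at least 2-fold lower. The iron exporter Slc40a1 was at 153 CPM for WT [119 to 195], 54.0 for Rbm20_het [33.0 to 83.4], 50.3 for Rbm20_homo [32.5 to 74.2] and 74.9 for the corrected library [55.8 to 98.5]. WT was the high library for this gene, 3.05-fold above Rbm20_homo [1.90 to 5.04] and 2.84-fold above Rbm20_het [1.70 to 4.95]. The transferrin receptor Tfrc was at 125, 70.2, 50.3 and 107 CPM and the metal transporter Slc11a1 at 181, 167, 86.5 and 99.9.

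Of the growth factor list, 2 of 8 measured genes were at least 2-fold lower in Rbm20_homo. Vegfa, which drives vessel growth, was at 92.9, 86.4, 30.2 and 47.0 CPM and Rbm20_homo was 3.08-fold below WT [1.66 to 6.00]. The phospholipid transfer protein Pltp was at 262, 173, 115 and 213 CPM and 2.29-fold lower [1.65 to 3.21]. Gas6, which bridges dying cells to the receptor Mertk, was at 304, 221, 173 and 301 CPM and 1.76-fold lower [1.33 to 2.34]. For Pltp and Gas6 the corrected library stood near WT, and for Vegfa between WT and Rbm20_homo.

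The genes ranked lowest in Rbm20_homo against WT included several receptors. Lpar6, a receptor for lysophosphatidic acid, was at 146 CPM for WT [112 to 187], 75.6 for Rbm20_het [50.2 to 109], 22.1 for Rbm20_homo [11.0 to 39.6] and 76.4 for the corrected library [57.0 to 100.2], or 6.61-fold lower in Rbm20_homo [3.46 to 13.9]. Hrh1, a histamine receptor, was at 158, 105, 34.2 and 141 CPM, or 4.62-fold lower [2.68 to 8.38]. Lilr4b, an inhibitory receptor of myeloid cells, was at 420.4, 254, 135 and 275 CPM, or 3.12-fold lower [2.34 to 4.19]. For these 3 genes Rbm20_homo was lowest and Rbm20_het lay between it and WT. The macrophage adhesion receptor Adgre4 (4.95-fold), the lysosomal channel Tpcn1 (3.61-fold), Ighm (3.77-fold), the fatty acid transporter Slc27a1 (3.64-fold) and Lgals4 (4.14-fold) completed the 8 lowest genes. Hrh1 was under 1 CPM in fibroblast, endothelial and cardiomyocyte nuclei of all 4 libraries. In macrophage nuclei with MHC class II genes or Ccr2 it was at 32.8, 69.7, 8.97 and 38.0 CPM, again lowest in Rbm20_homo, from 2 UMIs. Lpar6 was at 246, 27.9, 67.3 and 48.9 CPM in that class, lowest in Rbm20_het, also from 2 UMIs.

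Bank1, an adaptor best known from B cells, was at 653 CPM for WT [579 to 734], 397 for Rbm20_het [335 to 466], 286 for Rbm20_homo [241 to 337] and 784 for the corrected library [719 to 854]. Rbm20_homo was lowest, and the corrected library was 2.75-fold above it [2.28 to 3.33]. The transcription factor Runx1 was at 1001, 642, 628 and 1307 CPM, with the corrected library 2.08-fold above Rbm20_homo [1.83 to 2.38]. In macrophage nuclei with MHC class II genes or Ccr2, Bank1 was at 476, 529.5, 175 and 657 CPM, again lowest in Rbm20_homo and highest in the corrected library. It was under 20 CPM in the fibroblast, endothelial and cardiomyocyte nuclei of all 4 libraries.

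The 8 genes ranked highest in Rbm20_homo against WT were Nppa, Fkbp5, Zbtb16, Ccl21a, Epha7, Vcam1, Ppm1e and Tg. Nppa, the atrial natriuretic peptide made by cardiomyocytes, was at 6.97 CPM for WT, 10.8 for Rbm20_het, 669.9 for Rbm20_homo and 23.5 for the corrected library. The Nppa level of Rbm20_homo was 1015 CPM in its cardiomyocyte nuclei, 782 in its endothelial and 520.3 in its fibroblast nuclei, so the RNA was read at a like level in nuclei of every class of that library. Vcam1, an adhesion molecule, was at 11.6, 59.4, 90.5 and 11.7 CPM, a ratio of Rbm20_homo to WT of 7.79 [3.10 to 25.2]. The chemokine Ccl21a and the receptor Epha7 had 66.0% and 59.5% of their Rbm20_homo UMIs in 1 nucleus, and without the nuclei that carried at least 2 lymphatic endothelial UMIs (1, 6, 5 and 6 nuclei in the 4 libraries) their ratios of 10.8 and 10.7 came to 2.55 and 4.64.

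**Figure D4:**
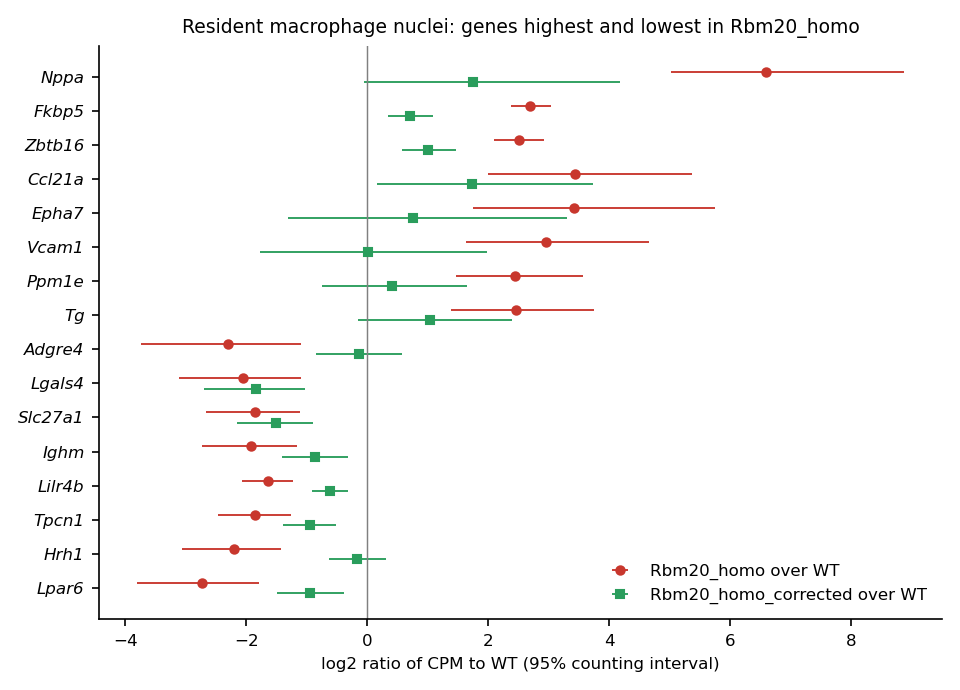
Log2 ratio of CPM to WT (x axis) for the 8 genes ranked highest and the 8 lowest in Rbm20_homo (y axis), in Rbm20_homo (circles) and in the corrected library (squares), with 95% counting intervals; both use the same WT library. Fkbp5 is 6.49-fold above WT in Rbm20_homo and 1.64-fold above it in the corrected library.

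Between Rbm20_het and WT, 75 of 3540 genes (2.12%) were at least 2-fold higher and 40 (1.13%) at least 2-fold lower, together 3.25%. The 8 genes ranked highest included the cardiomyocyte genes Mlip, at 254 CPM in Rbm20_het against 88.3 in WT, and Trim63, at 91.8 against 23.2. Rbm20_het was also the library with the most cardiomyocyte RNA in its resident nuclei, and when only nuclei with under 1% of the cardiomyocyte genes were kept, 29 genes instead of 75 were at least 2-fold higher. Among the lowest genes were Slc40a1 and Selenop, a secreted selenium carrier, at 553 CPM for WT, 265 for Rbm20_het, 376 for Rbm20_homo and 328 for the corrected library. Selenop was 2.09-fold lower in Rbm20_het than in WT [1.64 to 2.67].

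Interferon response genes were lower in Rbm20_het than in WT in 12 of 12 measured members, 1 of them at least 2-fold, with a median log2 ratio of -0.46 beside -0.03 over all genes. The GTPase Iigp1 had too few UMIs in this pair of libraries to count as measured and is not among the 12. Its level was 95.2 CPM for WT, 13.5 for Rbm20_het, 117 for Rbm20_homo and 60.2 for the corrected library. Iigp1 was thus 7.06-fold lower in Rbm20_het than in WT [2.79 to 22.9]. Its Rbm20_het sum rested on 5 UMIs. With each nucleus thinned to 1000 UMIs the median of the list was -0.18. The list was also lower than WT in 13 of 15 measured genes of the corrected library (median -0.25) and in 9 of 14 of Rbm20_homo (median -0.17), comparisons that share the WT library. In Rbm20_het other lists were lower too, with 25 of 29 general macrophage genes (median -0.24) and 14 of 17 lysosome and lipid genes (median -0.37).

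Between the corrected library and Rbm20_homo, 89 of 4662 genes (1.91%) were at least 2-fold higher and 89 (1.91%) at least 2-fold lower, together 3.82%. Between the corrected library and WT, 65 of 4489 genes (1.45%) were at least 2-fold higher and 54 (1.2%) lower, together 2.65%. TMM factors shifted the median log2 ratio of all genes in that last comparison from -0.01 to 0.09 and gave 102 higher and 27 lower. The catenin Ctnnd2 led the genes higher in the corrected library than in Rbm20_homo, at 141 against 26.2 CPM, a ratio of 5.39 [3.01 to 10.5]. The genes lower in it were led by Nppa, Nrg1, Per2, Vcam1 and Fkbp5, and 51.3% of the Nrg1 UMIs of Rbm20_homo lay in 1 nucleus.

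Of the circadian clock genes, Arntl and Per2 had their highest and lowest level, respectively, in the corrected library. Arntl, the activator of the clock (chromosome 7, 113207465 to 113314126), was at 62.7 CPM for WT [41.3 to 91.2], 45.9 for Rbm20_het [26.7 to 73.5], 52.3 for Rbm20_homo [34.2 to 76.6] and 163 for the corrected library [134 to 196]. Per2, a repressor of the clock, was at 48.8, 40.5, 78.5 and 8.81 CPM, the last from 6 UMIs. The corrected library was high for Arntl, 3.12-fold above Rbm20_homo [2.02 to 4.98] and 2.60-fold above WT [1.69 to 4.12], and low for Per2, 8.90-fold below Rbm20_homo [3.74 to 25.7]. Dbp, a clock output factor, was at 69.7, 78.3, 16.1 and 23.5 CPM and divided the libraries otherwise, with WT and Rbm20_het high. The same 2 genes were read in fibroblast nuclei, where Arntl was at 8.83, 5.03, 11.8 and 77.3 CPM and Per2 at 49.9, 85.2, 123 and 23.1, so the corrected library stood apart there too. In macrophage nuclei with MHC class II genes or Ccr2, Arntl was at 41.1, 55.7, 71.7 and 76.0 CPM and Per2 at 49.3, 41.8, 49.3 and 29.9. There the corrected library was close to Rbm20_homo for Arntl, on sums of 28 and 16 UMIs. The time of day at which hearts were taken is not given in the sources used here, and genotype and time of collection cannot be told apart. Over the whole clock list of 18 genes, 6 were measured in the corrected library against WT, 1 was at least 2-fold higher, and the median log2 ratio was -0.34 [-0.72 to 1.38].

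Resident nuclei were last compared with macrophage nuclei that had MHC class II or Ccr2 RNA and no resident gene (61 for WT, 35 for Rbm20_het, 97 for Rbm20_homo and 173 for the corrected library). UMIs were summed per class and library and tested with edgeR's quasi-likelihood test over the 4 libraries, with the library as a term and the genes of the rule left out. The 2 classes had been split by counts in the same nuclei, so genes that travel with the rule genes are not independent of the split, and the test describes what else differed between the sums. Of 6470 genes, 210 (3.25%) were higher in the resident class and 205 (3.17%) lower, at an adjusted p under 0.05. At an unadjusted p under 0.05 there were 1046.

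The resident macrophage list, apart from rule genes, had 11 of 17 tested members higher and none lower, with a median log2 fold change of 0.95. The leukotriene synthase Ltc4s was at 204, 178, 131 and 144 CPM in the resident class and 8.21, 27.9, 17.9 and 8.14 in the other, in the order WT, Rbm20_het, Rbm20_homo and corrected. Its log2 fold change was 3.55 ± 0.33 (SE, edgeR adjusted p = 2.1e-07), and the levels of the 2 classes did not overlap. The scavenger receptor Colec12 was at 655, 920.5, 833 and 812 CPM against 98.5, 223, 143 and 217, a log2 fold change of 2.24 ± 0.16 (edgeR adjusted p = 2.6e-09). The complement receptor Vsig4 (2.80 ± 0.40), the endothelin receptor Ednrb (2.28 ± 0.32), the reductase Cbr2 (2.03 ± 0.21), Gas6 (1.33 ± 0.18), the scavenger receptor Stab1 (1.15 ± 0.11), Igf1 (0.91 ± 0.17), Wwp1 (0.90 ± 0.15), the transcription factor Maf (0.88 ± 0.13) and Selenop (0.72 ± 0.15) were higher as well.

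Outside that list the largest differences in favour of the resident class included the exchange factor Plekhg5, at 711, 572, 402 and 504 CPM against 115, 111, 94.2 and 109, and a log2 fold change of 2.31 ± 0.16 (edgeR adjusted p = 2.6e-09). The growth factor receptor Egfr (2.25 ± 0.26), the transcription factor Tfec (3.40 ± 0.54), the selenium binding protein Selenbp1 (3.21 ± 0.46), Rgs7bp (3.33 ± 0.49) and Slit1 (2.23 ± 0.45) followed. Rgs7bp had no UMI in the other class in 3 libraries and Tfec in 2, so their fitted values depend on the prior count. The flagellin receptor Tlr5 (2.29 ± 0.50) passed with edgeR but not with DESeq2 or without the corrected library. Hsf3 was at 67.4, 83.7, 80.5 and 29.4 CPM and had no UMI in the other class except in the corrected library, at 8.14 CPM.

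Of the growth factor list, 3 of 11 tested genes were higher in the resident class and none lower: Pdgfc (1.88 ± 0.22), the semaphorin receptor Nrp1 (0.67 ± 0.11) and Igf1. Of the iron list, 4 of 15 were higher and none lower, namely Tfrc (1.79 ± 0.34), the ferroxidase Cp (1.01 ± 0.17), the biliverdin reductase Blvrb (0.98 ± 0.28) and the prostaglandin dehydrogenase Hpgd (0.48 ± 0.14). The shares of both lists exceeded the background of 3.25%. The complement receptor C5ar1 was higher in the resident class as well (0.88 ± 0.22). None of the 11 tested glucocorticoid genes and none of the 9 clock genes passed in either direction. Fkbp5 had a log2 fold change of 0.37 ± 0.14 (edgeR adjusted p = 0.16), and Apoe one of 0.01 ± 0.12 (edgeR adjusted p = 0.99).

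Genes higher in the other class were led by genes of antigen-presenting cells. Ciita, the master regulator of MHC class II transcription, was at 20.9, 16.2, 6.04 and 14.7 CPM in the resident class and 304, 223, 336 and 304 in the other, a log2 fold change of -4.35 ± 0.26 (edgeR adjusted p = 3e-10). The peptide loading gene H2-DMb1 (-3.49 ± 0.33), the dendritic cell receptor Clec9a (-5.01 ± 0.50), the lymphocyte receptor Btla (-5.16 ± 0.48), the B cell factor Pax5 (-3.97 ± 0.64), Slamf7 (-3.99 ± 0.44) and Dpp4 (-3.89 ± 0.43) were also lower in the resident class. The comparison class thus carried RNA of dendritic cell and B cell genes besides that of macrophages, and the part of those cells in the difference was not tested. Of the general macrophage list, 6 of 27 tested genes were lower in the resident class, including the fractalkine receptor Cx3cr1 (-1.32 ± 0.24) and the leukocyte marker Ptprc (-0.91 ± 0.12), and Mertk, a receptor for dying cells, was higher (0.82 ± 0.13).

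**Figure D5:**
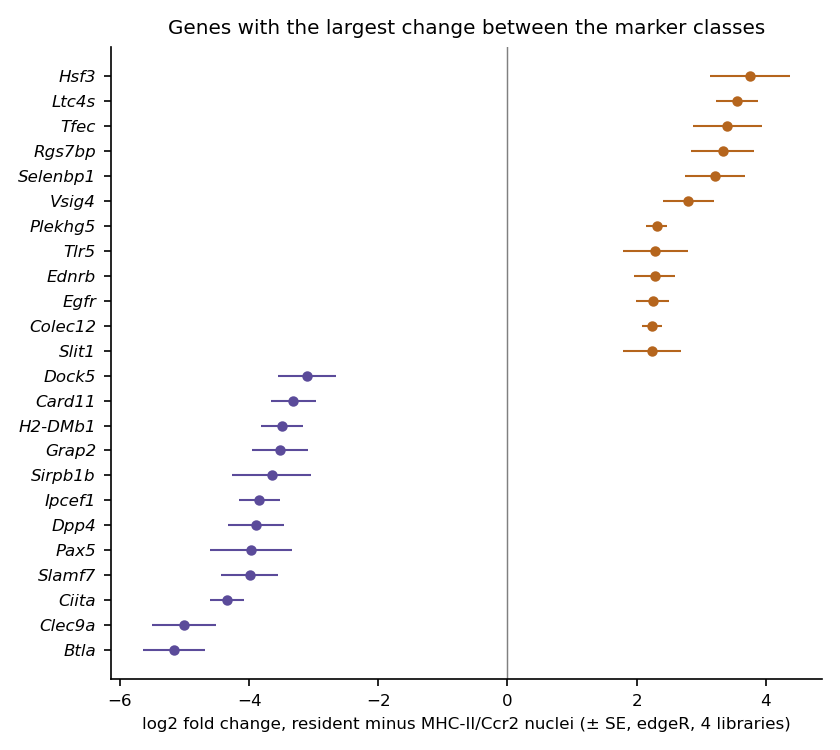
Log2 fold change of the resident class over the MHC class II or Ccr2 class (x axis, points with SE, edgeR over 4 libraries) for the 12 genes with the largest difference in each direction (y axis). Colec12 and Plekhg5 have small errors at 2.24 ± 0.16 and 2.31 ± 0.16, and Ciita stands at -4.35 ± 0.26.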

How the data were processed

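The authors deposited one matrix of UMI counts for each library, unnormalized integers by gene and barcode, with 32285 mouse genes and 2 added features (ABE_C and ABE_N). Cell Ranger 6.1.1, Seurat 4 and the build mm10 (GRCm38) are listed in the submitters' processing notes; the header lines of the matrices give version 4.0.0 of Cell Ranger instead. How barcodes were filtered and whether intronic reads were counted are not given in the sources used here. Gene positions came from the GRCm38 annotation and promoters from RefSeq GRCm38.p6.

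The rule for resident nuclei, the gene lists (489 genes in 30 lists, 3 of them not analysed here) and the tests were chosen with earlier results of these data known. UMIs were summed over resident nuclei in each library and scaled to CPM. Sums have exact Poisson, ratios exact conditional binomial and shares exact Clopper-Pearson 95% intervals, and ratios of shares approximate ones; none of them covers more than counting error. Since each genotype was 1 library, no test between genotypes was possible, so genes at least 2-fold apart among those with at least 50 UMIs in the pair of libraries were counted as a description. The fibroblast, endothelial and cardiomyocyte classes were nuclei with at least 6, at least 6 UMIs of their defining genes or at least 4% of UMIs from cardiomyocyte genes, the first and second with at most 1 macrophage UMI.

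Resident and MHC class II or Ccr2 sums were tested with edgeR 4.0.16 in R 4.3.3 (quasi-likelihood, TMM, filterByExpr, Benjamini-Hochberg over all genes), with DESeq2 1.42.0 as an alternative. The scripts were tested on simulated data. Doublets were limited by the rule alone; Scrublet (scanpy 1.11.5) scores, with the highest 0.8% per 1000 barcodes removed, were an alternative, since its own threshold marked 0 nuclei in WT and 2991 in the corrected library.

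Named genes were those of the rule, the 8 highest and 8 lowest of each comparison of libraries by the interval bound nearest to 1 (at least 30 UMIs in the higher library), up to 4 per list with the largest absolute log2 ratio of Rbm20_homo to WT (at least 50 UMIs in all), and the 12 and 12 largest edgeR fold changes with 1 direction in all 4 libraries. Mitochondrial, haemoglobin and sex-linked genes, unnamed models, and genes under 0.2 of their CPM in another class in both libraries were left out of the rankings. Klf9, Hif3a, Nr3c1, Tsc22d1, C1qb and list members that passed the edgeR test were named after their values were seen.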

Additional observations from a re-analysis of the deposited data

Results flagged for a closer look

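Both added features of the matrices, ABE_C and ABE_N, had UMIs in resident nuclei of the corrected library and none in those of the other 3, which is why they are given here. ABE_C was at 4.41 CPM (3 UMIs, in 1.01% of the nuclei) and ABE_N at 10.3 CPM (7 UMIs, in 1.68%). In cardiomyocyte nuclei of the same library they were at 179 and 246 CPM, in fibroblast nuclei at 8.66 and 9.31, and in MHC class II or Ccr2 macrophage nuclei at 29.9 and 16.3. The resident nuclei were thus near the fibroblast level and far under that of cardiomyocytes. What sequence each feature stands for is not given in the sources used here, and whether the UMIs come from RNA made in these nuclei or from RNA of other cells was not tested.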

How the results depend on the processing

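The share of resident nuclei in the corrected library against Rbm20_homo turned from 1.20 to 0.954 with at least 2 resident UMIs and to 0.978 with thinning before the rule, and against WT it went from 1.01 to 0.825 with at least 2 resident UMIs. Counts of genes at least 2-fold higher and lower, for Rbm20_homo to WT, Rbm20_het to WT, the corrected library to Rbm20_homo and the corrected library to WT, were 374 and 370, 270 and 290, 302 and 359, and 284 and 280 with a minimum of 20 UMIs. With 100 UMIs they were 31 and 26, 32 and 4, 28 and 25, and 17 and 10, and with nuclei thinned to 1000 UMIs 35 and 28, 18 and 12, 46 and 36, and 26 and 22; each tests another number of genes. TMM factors gave 102 and 27 for the corrected library to WT, and moved the median of the transcription factor list there from -0.04 to 0.069. With under 1% cardiomyocyte genes, Rbm20_het had 29 genes higher than WT and a complement median of 0.072 instead of -0.16, and thinning took its interferon median from -0.46 to -0.18. Thinning also turned the log2 ratio of Fabp4 in Rbm20_homo to WT from -0.86 to 0.055 and that of Ednrb in Rbm20_het to WT from -0.61 to 0.052. Dropping the rule genes from their lists, a choice made after seeing the data like the one on lymphatic endothelial UMIs, gave the glucocorticoid values in the text and a resident list median of -0.56 instead of -0.19 for Rbm20_homo to WT. The cause of these moves was not tested.

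For the resident against the MHC class II or Ccr2 class, 210 higher and 205 lower genes became 106 and 104 with DESeq2, 333 higher with no filter on low counts and 96 lower with thinning. Without the library as a block (no replicate block) 139 were higher. Leaving out 1 library at a time gave 132 to 191 higher and 127 to 200 lower, lowest without the corrected library (132 and 127), while without Rbm20_homo 137 were higher. Fewer nuclei of 1 genotype than of another limit the depth, and genes under 50 UMIs in a pair of libraries were left out of the counts and list medians, though some are given singly with wide intervals.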

Other observations

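Resident nuclei with and without a Lyve1 UMI were compared within each library, as a description, since the Lyve1 count made the groups. There were 41 with and 143 without in WT, 51 and 101 in Rbm20_het, 88 and 102 in Rbm20_homo, and 84 and 213 in the corrected library. Nuclei with Lyve1 were deeper in all 4, with medians of 2264 to 2628 UMIs against 1920 to 2067. The growth factor Igf1 was lower with Lyve1 in all 4 libraries, at 316 against 372 CPM in WT, 361 against 469 in Rbm20_het, 187 against 313 in Rbm20_homo and 318 against 382 in the corrected library. The interval of the ratio excluded 1 only in Rbm20_homo, at 0.597 [0.408 to 0.868]. The ectoenzyme Cd38 had ratios of 0.649, 0.476, 0.602 and 0.835 in the same order, and Apoe 0.892, 0.827, 0.869 and 0.802. Selenop, Wwp1 and C1qa were lower with Lyve1 in all 4 libraries as well. The genes read were those of the resident list outside the rule and some others, and most had no common direction. The scavenger receptor Colec12 was higher with Lyve1 in all 4, by 1.07, 1.06, 1.22 and 1.12 times. Fkbp5 had no common direction, with ratios of 1.14, 0.762, 0.949 and 1.29, so nuclei with and without Lyve1 both carried the high Fkbp5 level of Rbm20_homo, at 1281 and 1349 CPM.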
